A study of Mus musculus with 10 samples.

Results

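Cells meet unfolded proteins in the endoplasmic reticulum (ER), amino acid shortage and other stresses with the unfolded protein response, the integrated stress response and the heat shock response, and the mRNA levels of 38 genes of these pathways were examined in the hippocampus of Dp1Tyb mice, a model of Down syndrome. The genes were chosen by name, and their Ensembl identifiers were found in the count table through the GRCm38 gene annotation. All 38 were among the 43629 genes of the table, and all 38 passed the filter on low counts that left 17237 genes for testing. They fell into 5 groups by role, with 15 ER chaperones and folding enzymes, 4 genes for the ER stress sensors and XBP1, 7 genes around translation factor eIF2, 8 genes of the ATF4 arm and 4 cytosolic heat shock genes. Hspa13 was the only 1 of the 38 in the segment that is duplicated in Dp1Tyb mice, and the other 37 genes were present in the usual pair of copies.

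RNA was sequenced from the total hippocampus of 5 Dp1Tyb and 5 wild-type (WT) mice, with 1 library per mouse, and the replicates were therefore separate animals. The labels gave an age of 18 weeks and the strain C57BL/6J.129P2 for both groups. They gave the genotype of the Dp1Tyb mice as Dp(16Lipi-Zbtb21)1TybEmcf, a duplication on chromosome 16 that runs from Lipi to Zbtb21 and is orthologous to human chromosome 21, and the WT mice were littermates without it. The labels name no treatment. In a whole hippocampus, fewer cells of a type and less RNA per cell cannot be told apart.

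As background, ER chaperones such as BiP hold and fold newly made secretory and membrane proteins, and the sensors IRE1, ATF6 and PERK become active when unfolded proteins accumulate. IRE1 splices the mRNA of Xbp1, and XBP1 and ATF6 then raise transcription of chaperone and degradation genes through ER stress response elements in their promoters. PERK and its sister kinases HRI, PKR and GCN2 phosphorylate eIF2α, which slows translation in general but favours translation of Atf4, whose targets serve amino acid supply, redox balance and, under lasting stress, cell death. In the hippocampus this phosphorylation is known for its influence on synaptic plasticity and memory. Much of this control acts on splicing, phosphorylation and translation, which gene-level mRNA counts do not measure.

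Total counts ranged from 18227684 to 43692270 per library, and the 38 genes together took 0.353% to 0.412% of them. The sums over 5 marker genes of hippocampal neurons (Prox1, Dsp, Fibcd1, Neurod6 and Wfs1) were 635 to 728 CPM (read counts brought to the same library size) in WT and 701 to 721 CPM in Dp1Tyb. The sums over 11 marker genes of the choroid plexus, the epithelium that makes cerebrospinal fluid, varied far more, from 443 to 5563 CPM in WT and from 44.9 to 4002 CPM in Dp1Tyb. In 3 libraries (WT2, Dp1Tyb1 and Dp1Tyb4) they were below 1000 CPM. All 11 choroid plexus genes were lower in Dp1Tyb, with a median log2 fold change of −0.93 and none at an unadjusted p under 0.05 (edgeR quasi-likelihood test). Their log2 fold changes extended from −1.20 for Slc4a5 to −0.43 for Kcne2 and −0.40 for Clic6. Ttr, with a mean of 3247 CPM in WT, made up most of the WT sums. Results that rest on these 3 libraries are therefore also given without them, a choice made after seeing the data. The ranges for blood genes were 43.0 to 93.2 CPM in WT and 33.4 to 67.1 CPM in Dp1Tyb, and those for immediate early genes were 263.9 to 392.2 and 231.3 to 345.6 CPM. For meningeal genes they were 46.97 to 121.9 CPM in WT and 75.8 to 94.8 CPM in Dp1Tyb, and for thalamic genes 59.9 to 67.1 and 61.95 to 71.1 CPM.

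The genes differed widely in level. Compared per length of exon, as CPM per kilobase (RPKM), the highest WT mean was that of Hspa8, the constitutive cytosolic HSP70, at 222 RPKM, 18.9 times the median of the 38 genes (11.7 RPKM). Next came ER proteins of the folding cycle, with Calr (calreticulin) at 107 RPKM, Canx (calnexin) at 66.6, the disulphide isomerase Pdia3 at 58.8, Hspa5 (BiP) at 48.8 and Hsp90b1 (GRP94) at 44.8. Atf4 mRNA had a mean of 42.6 RPKM, close to that of the HSP110 gene Hsph1 at 42.3 RPKM. The sensor genes were lower, with Xbp1 at 16.8, Atf6 at 10.2, Eif2ak3 (PERK) at 4.97 and Ern1 (IRE1) at 2.32 RPKM. The interferon-inducible kinase gene Eif2ak2 (PKR) had 1.54 RPKM. The lowest of the 38 was Trib3, a pseudokinase gene of the ATF4 arm, at 0.434 RPKM, and with 11 to 38 counts per library it was measured with the least precision. Members with several near-identical genomic copies, such as Hspa8 and Hspa1b, may be undercounted, since reads that aligned to several places had been discarded. As the strand setting of the counting was not given in the sources used here, values are also uncertain for genes with exons opposite those of another gene, which were Hsp90b1, Pdia3, Pdia6, Dnajb9, Manf, Eif2ak1, Eif2ak2, Eif2ak3, Ppp1r15a, Ppp1r15b, Atf5 and Ddit3.

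**Figure D1:**
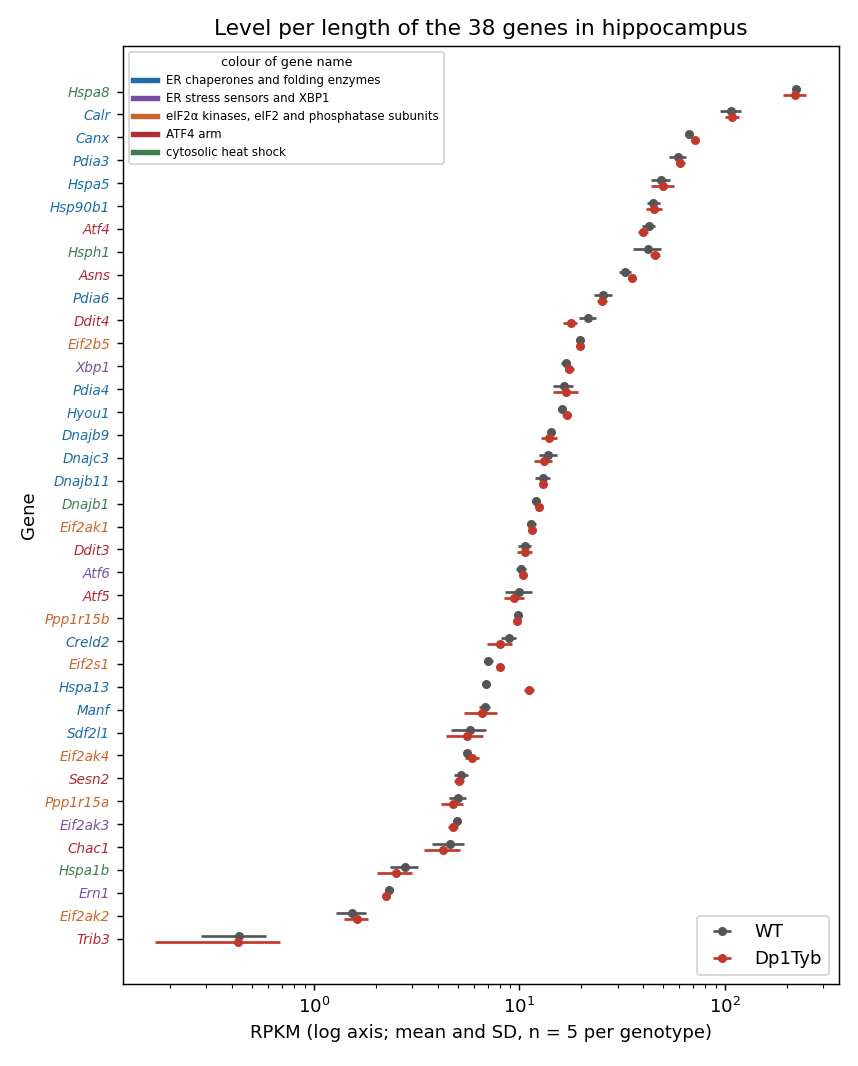
Level per length of each of the 38 genes in WT (grey) and Dp1Tyb (red) hippocampus, as mean RPKM on a log axis with the SD over 5 mice each, in order of the WT mean. The levels extend from 0.434 RPKM for Trib3 to 222 RPKM for Hspa8, and the gap between the genotype means relative to their SDs is widest for Hspa13.

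The first comparison asked whether the extra copy of Hspa13 was seen at the level of its mRNA. HSPA13 is a microsomal ATPase of the HSP70 family that lacks the usual peptide-binding domain. Its gene (ENSMUSG00000032932) lies on the minus strand of chromosome 16 of GRCm38 at positions 75745431 to 75767104, near the start of the duplicated segment at 75540514, and its exons overlap no other gene. Its level in the WT mice, replicates 1 to 5, was 46.9, 49.7, 48.0, 47.0 and 44.5 CPM, a mean of 47.2 ± 1.88 CPM (SD, n = 5). In the Dp1Tyb mice it was 72.0, 78.4, 75.4, 81.5 and 71.8 CPM, a mean of 75.8 ± 4.19 CPM (SD, n = 5). Every Dp1Tyb mouse was above every WT mouse, and the gap between the groups was wider than the spread within either of them.

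Hspa13 rose 1.606-fold in Dp1Tyb, with a 95% interval of 1.497 to 1.722 (log2 fold change 0.68 ± 0.047 SE, edgeR adjusted p = 2.38e-06). It was the only 1 of the 38 genes that passed the threshold of 0.05 on the adjusted p, which 191 of all 17237 tested genes (1.11%) did. Among the 114 tested genes of the duplicated segment, whose median fold change was 1.446, it had the 22nd largest. The call held when any single library was left out and under every other setting tried. Dnajb11, Sdf2l1 and Eif2b5 also lie on chromosome 16, outside the segment. Their log2 fold changes were −0.0055, −0.065 and 0.0006, and none passed the test.

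**Figure D2:**
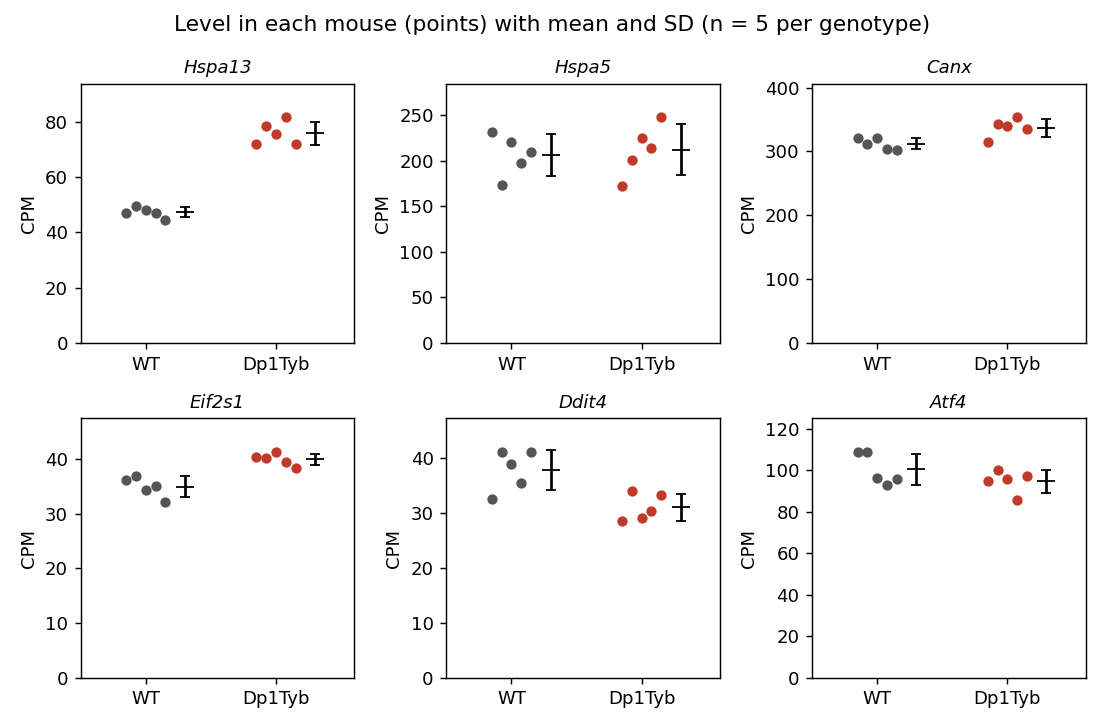
Level in CPM of 6 genes in each mouse (points, replicates 1 to 5 from left to right), with the mean and SD (n = 5) beside the points of each genotype; every axis starts at 0. Hspa13 and Eif2s1 were the genes of the 38 whose genotypes did not overlap, Hspa5 spread over about the same range in both genotypes, and Ddit4 was lower in Dp1Tyb with an overlap that came from WT1.

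The next question was whether the 37 genes outside the segment differed between the genotypes. None of them was differentially expressed (edgeR, adjusted p under 0.05), a threshold passed by 0.718% of the 17123 tested genes outside the segment. Of the 37, 18 were higher and 19 lower in Dp1Tyb, with a median log2 fold change of −0.0055. This split changed under the settings that address choroid plexus content: 25 were higher and 12 lower (median 0.030) without the 3 low libraries, and 27 were higher and 10 lower (median 0.040) with the level of the choroid plexus gene Ttr as a covariate. The medians over all tested genes outside the segment were −0.0049 in the full comparison, −0.0079 without the 3 libraries and −0.0001 with the covariate. Without Dp1Tyb5, 12 of the 37 were higher and 25 lower. Canx, Eif2s1 and Ddit4 had an unadjusted p under 0.05, that is 3 of 37, against 14.0% of the tested genes outside the segment. The genotypes did not overlap for 1 of the 37, Eif2s1, against 3.29% of those genes. The median size of the difference, regardless of direction, was 0.059 on the log2 scale for the 37 genes and 0.085 for all tested genes outside the segment. DESeq2, run as an alternative, called 3 of the 38 genes, Hspa13, Eif2s1 and Ddit4, where it called 3.20% of the 15853 genes that received an adjusted p.

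The precision limited how large an undetected difference could be. For 36 of the 37 genes the 95% interval lay within a 1.5-fold change in either direction, and for 25 it lay within 0.25 on the log2 scale. The exception to the former was Trib3, with a fold change of 0.953 and an interval of 0.546 to 1.66. The log2 fold changes extended from −0.28 for Ddit4 to 0.19 for Eif2s1.

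**Figure D3:**
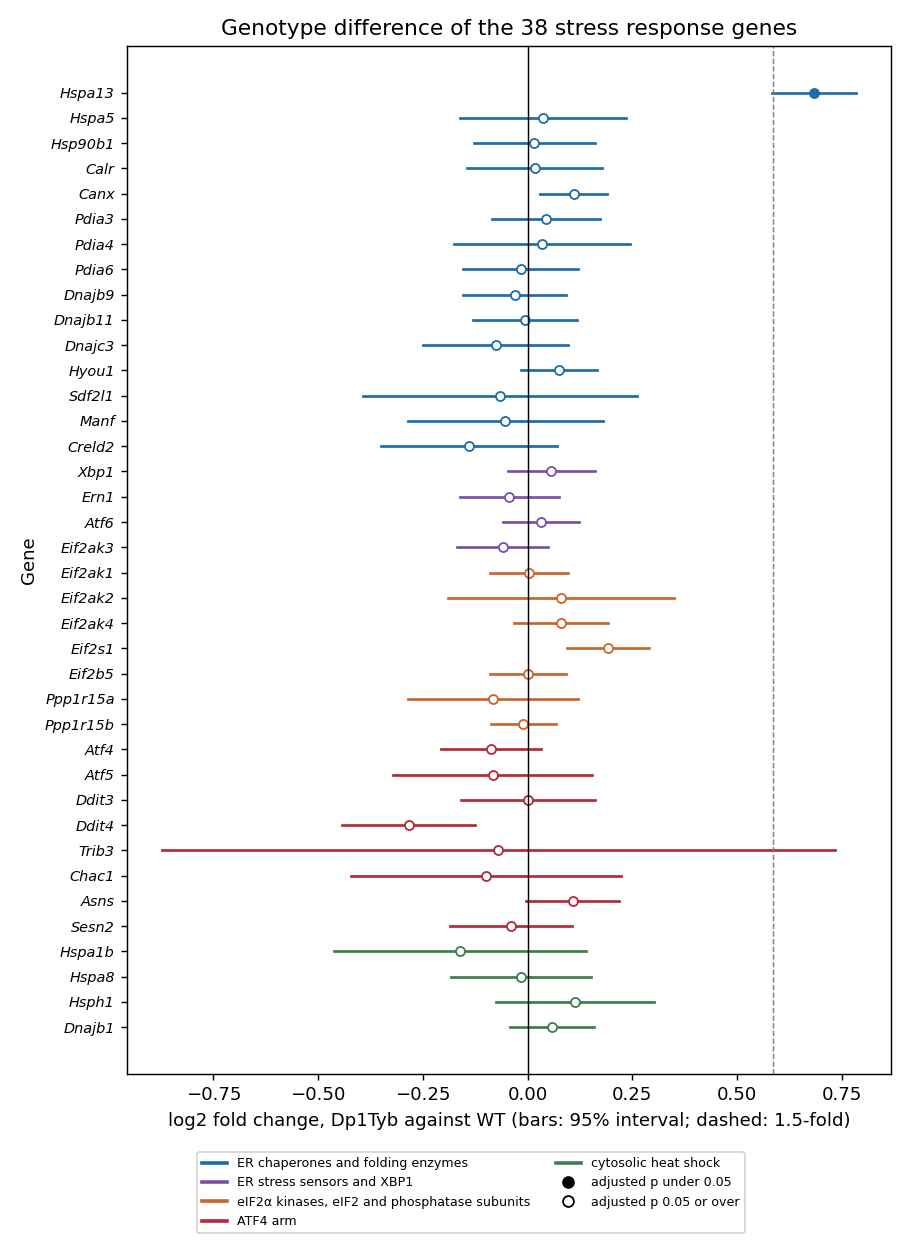
Log2 fold change in Dp1Tyb against WT of the 38 genes, coloured by role, with bars for the 95% interval of the edgeR fit (n = 5 per genotype) and a dashed line at a 1.5-fold increase. Hspa13 is the only gene drawn with a filled point (adjusted p under 0.05), and 34 of the other 37 intervals include 0.

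The ER chaperones and folding enzymes were led by Hspa5, the gene for BiP, the master chaperone that also keeps the 3 sensors inactive (ENSMUSG00000026864, chromosome 2, positions 34771970 to 34777547, plus strand). Hspa5 measured 231, 173, 221, 197 and 210 CPM in the WT mice and 173, 201, 225, 214 and 248 CPM in the Dp1Tyb mice. The lowest mice of both genotypes, WT2 and Dp1Tyb1, had almost the same level, and the groups overlapped over most of their range. The log2 fold change was 0.037 ± 0.092 SE (edgeR adjusted p = 0.884), and the 95% interval of the fold change was 0.895 to 1.18. WT2 and Dp1Tyb1 were also among the 3 libraries with low choroid plexus genes, whereas the third, Dp1Tyb4, had 214 CPM of Hspa5.

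Calnexin is a membrane-bound lectin chaperone that retains glycoproteins until they are folded. Its gene Canx (ENSMUSG00000020368, chromosome 11, positions 50293961 to 50325673, minus strand) measured 321, 312, 322, 304 and 303 CPM in WT and 315, 342, 340, 353 and 335 CPM in Dp1Tyb. Only Dp1Tyb1 lay within the WT range. Its log2 fold change of 0.11 ± 0.037 SE had an unadjusted p of 0.0111 and did not pass after adjustment (edgeR adjusted p = 0.206).

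The other 12 two-copy chaperone genes, besides Hspa5 and Canx, had 95% intervals that included 0, and 8 of all 15 genes of the group were higher in Dp1Tyb. Without the 3 libraries low in choroid plexus genes 12 of the 15 were higher, and with the Ttr level as a covariate 14 were, all but Creld2. Without Dp1Tyb5, the mouse with the highest Hspa5, 4 of the 15 were higher. Under the covariate the log2 fold changes of Hspa5 and Pdia4 were 0.15 ± 0.080 SE and 0.18 ± 0.072 SE, and neither passed (edgeR adjusted p = 0.543 and 0.384). Hsp90b1 (log2 fold change 0.017 ± 0.067 SE), Calr (0.017 ± 0.074 SE) and Pdia3 (0.044 ± 0.060 SE) were among the most abundant of them. Hyou1, an ER relative of HSP110 that exchanges the nucleotide of BiP, had a log2 fold change of 0.075 ± 0.043 SE. Dnajb9, Dnajb11 and Dnajc3 code for J-domain partners of BiP, and their log2 fold changes were −0.031, −0.0055 and −0.076. The disulphide isomerase genes Pdia4 and Pdia6 had 0.034 and −0.016. The remaining genes were Sdf2l1, a partner of DNAJB11, at −0.065, the secreted stress factor gene Manf at −0.053, and Creld2 at −0.14 ± 0.097 SE. Manf, Hsp90b1 and Pdia4 share exon sequence with other annotated genes on the same strand (a microRNA gene, Mir704, for Pdia4), so that part of their reads is uncertain.

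The promoters of some chaperone genes carry the sequence through which the unfolded protein response is known to act, and it is shown here to let them be compared. Promoter windows of RefSeq (GRCm38.p6), from 250 bases before to 50 after the start of transcription, were found for 32 of the 38 genes and for 12 of the 15 chaperone genes. They were searched on both strands for the ER stress response element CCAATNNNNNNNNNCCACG, in which NF-Y binds the first part and ATF6 the last. It was in 0.119% of all 32851 windows of the genome and in windows of 7 of the 32 genes, all 7 of them chaperone genes. The stretches below run 5′ to 3′ along the gene, with the element in capitals. An element that runs on the opposite strand starts with CGTGG.
Hspa5: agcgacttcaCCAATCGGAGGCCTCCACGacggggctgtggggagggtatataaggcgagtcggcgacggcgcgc
Canx: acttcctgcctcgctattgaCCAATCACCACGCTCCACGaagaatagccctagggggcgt
Calr: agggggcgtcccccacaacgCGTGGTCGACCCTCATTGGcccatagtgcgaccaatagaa
Hsp90b1: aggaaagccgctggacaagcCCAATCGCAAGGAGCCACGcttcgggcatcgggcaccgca
Pdia6: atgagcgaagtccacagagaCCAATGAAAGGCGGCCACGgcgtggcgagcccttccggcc
Dnajc3: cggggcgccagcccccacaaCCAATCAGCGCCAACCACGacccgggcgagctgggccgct
Creld2: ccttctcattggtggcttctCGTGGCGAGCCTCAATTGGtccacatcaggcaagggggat
They lie at chr2:34772015-34772089 (Hspa5, plus strand), chr11:50325779-50325838 (Canx, minus strand), chr8:84847054-84847113 (Calr, minus strand), chr10:86705617-86705676 (Hsp90b1, minus strand), chr12:17266471-17266530 (Pdia6, plus strand), chr14:118937807-118937866 (Dnajc3, plus strand) and chr15:88819500-88819559 (Creld2, plus strand). In each of them the element is before the RefSeq start of transcription, and the window of Hsp90b1 holds it 2 times. The stretch of Hspa5 lies after the start of the gene in the GRCm38 gene annotation (34771970), so the annotated starts differ there. Dnajb11 instead has the related ER stress response element II, found in 0.0365% of all windows, just after its start. These letters were not in the windows of the other chaperone genes with a window, Pdia3, Pdia4, Dnajb9 and Sdf2l1.

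Some targets of ATF4 carry a different element. Its composite site with C/EBP, TGATGNAA, was in 3.97% of all windows and in those of Asns, Chac1 and Trib3, for the last of them after the start. It was not in the windows of the other genes of the arm, Atf4, Atf5, Ddit3, Ddit4 and Sesn2. In Asns and Chac1, shown as the targets that ATF4 controls in amino acid supply and glutathione turnover, the element is in capitals.
Asns: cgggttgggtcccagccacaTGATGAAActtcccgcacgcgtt
Chac1: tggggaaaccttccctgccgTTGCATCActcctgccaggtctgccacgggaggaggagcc
The former is at chr6:7693210-7693252 on the minus strand and the latter at chr2:119351029-119351088 on the plus strand, where the element runs on the opposite strand. The stretch of Asns, before its RefSeq start, lies inside the gene in the gene annotation, where Asns begins at 7693254. The unfolded protein response element TGACGTG was in 2.01% of all windows and, of the 32 genes, in that of Hspa5, and the heat shock element GAANNTTCNNGAA was in 0.603% of all windows and in that of Hsph1. A match of letters describes the sequence and does not show that a factor binds there.

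For the sensors, Eif2ak3 codes for PERK, which is both a sensor and an eIF2α kinase (ENSMUSG00000031668, chromosome 6, positions 70844515 to 70905245, plus strand). It measured 30.5, 31.2, 29.6, 29.4 and 29.1 CPM in WT and 28.1, 30.4, 26.6, 28.3 and 30.4 CPM in Dp1Tyb. Most Dp1Tyb mice (1, 3 and 4) were below the WT range and the other 2 were within it. Its log2 fold change was −0.059 ± 0.050 SE (edgeR adjusted p = 0.612). Ern1 had −0.044 ± 0.055 SE, Atf6 0.033 ± 0.042 SE and Xbp1, counted over spliced and unspliced mRNA alike, 0.057 ± 0.048 SE, none of which passed the test.

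Among the genes around eIF2, the largest difference was that of Eif2s1, which codes for eIF2α itself, the subunit that the 4 kinases phosphorylate (ENSMUSG00000021116, chromosome 12, positions 78861819 to 78887010, plus strand, with no overlapping exon). It measured 36.2, 36.98, 34.4, 35.1 and 32.2 CPM in WT and 40.4, 40.2, 41.3, 39.5 and 38.5 CPM in Dp1Tyb. All 5 Dp1Tyb mice lay above all 5 WT mice. The means were 34.97 ± 1.86 and 39.97 ± 1.05 CPM (SD, n = 5 each), a fold change of 1.143 with a 95% interval of 1.067 to 1.223. The log2 fold change of 0.19 ± 0.046 SE had an unadjusted p of 0.00101 but did not pass after adjustment over all tested genes (edgeR adjusted p = 0.0652). DESeq2 gave an adjusted p of 0.0156 for the same counts. Without the 3 libraries low in choroid plexus genes the log2 fold change was 0.21, and with single libraries left out it was 0.16 to 0.21 and did not pass.

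The kinase genes themselves did not pass the test. Eif2ak1 (HRI, which responds to haem and mitochondrial stress) had a log2 fold change of 0.0035 ± 0.043 SE, Eif2ak2 0.079 ± 0.13 SE and Eif2ak4 (GCN2, the sensor of uncharged tRNA) 0.080 ± 0.052 SE. Eif2b5, which codes for the catalytic subunit of the exchange factor eIF2B, had 0.0006 ± 0.042 SE. Ppp1r15a and Ppp1r15b code for GADD34 and CReP, the inducible and the constitutive partner of the phosphatase that restores eIF2α. Ppp1r15a measured 14.4, 14.8, 17.1, 14.2 and 13.2 CPM in WT and 13.7, 13.4, 15.1, 11.5 and 16.0 CPM in Dp1Tyb. These ranges overlapped, and the log2 fold change was −0.083 ± 0.094 SE (edgeR adjusted p = 0.718). That of Ppp1r15b was −0.0098 ± 0.036 SE, the smallest standard error of the 38 genes.

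In the ATF4 arm, 6 of 8 genes were lower and 2 higher in Dp1Tyb, with a median log2 fold change of −0.076 beside −0.0049 for all tested genes outside the segment, and none passed the adjusted test. The direction turned without the 3 libraries low in choroid plexus genes, where 5 of the 8 were higher and 3 lower with a median of 0.067. With the Ttr level as a covariate 3 were higher and 5 lower, with a median of −0.024. Atf4, the transcription factor gene of the arm (ENSMUSG00000042406, chromosome 15, positions 80255184 to 80257541, plus strand), measured 109, 109, 96.3, 92.9 and 95.7 CPM in WT and 94.8, 99.9, 95.5, 85.5 and 97.3 CPM in Dp1Tyb. Only Dp1Tyb4 lay below the WT range, and the log2 fold change was −0.087 ± 0.056 SE (edgeR adjusted p = 0.499).

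Ddit4 codes for REDD1, an inhibitor of mTORC1 that is induced by ATF4 and also by hypoxia and glucocorticoids (ENSMUSG00000020108, chromosome 10, positions 59949669 to 59951834, minus strand). It measured 32.7, 41.1, 38.9, 35.5 and 41.1 CPM in WT and 28.5, 34.1, 29.1, 30.4 and 33.3 CPM in Dp1Tyb. WT1 lay within the Dp1Tyb range, and the other 4 WT mice were above all Dp1Tyb mice. The means were 37.9 ± 3.71 and 31.1 ± 2.50 CPM (SD, n = 5 each), a fold change of 0.821 with a 95% interval of 0.736 to 0.917. The log2 fold change of −0.28 ± 0.074 SE had an unadjusted p of 0.00196 and did not pass after adjustment (edgeR adjusted p = 0.0906). The outcome depended on the setting: the adjusted p was 0.0147 with DESeq2, and 0.0418 in edgeR without WT1. Without the 3 libraries low in choroid plexus genes the log2 fold change was −0.21 (edgeR adjusted p = 0.409).

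The other genes of the arm lay on both sides of 0. Asns, the asparagine synthetase gene, was higher in Dp1Tyb with a log2 fold change of 0.11 ± 0.052 SE that did not pass (edgeR adjusted p = 0.365). Ddit3 (CHOP, a mediator of stress-induced cell death) had 0.0009 ± 0.074 SE, and its reads are uncertain because it overlaps other annotated genes on both strands. The glutathione-degrading enzyme gene Chac1 had −0.099 ± 0.15 SE, Atf5 −0.083 ± 0.11 SE, the stress-induced mTORC1 regulator gene Sesn2 −0.039 ± 0.067 SE and Trib3 −0.070 ± 0.37 SE.

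Of the cytosolic heat shock genes, Hspa8 measured 1006, 914, 983, 962 and 903 CPM in WT and 851, 974, 1035, 784 and 1071 CPM in Dp1Tyb. The Dp1Tyb mice extended both above and below the WT range, with SDs of 122 CPM in Dp1Tyb and 43.9 CPM in WT (n = 5 each). Its log2 fold change was −0.017 ± 0.077 SE (edgeR adjusted p = 0.943). The 2 lowest Dp1Tyb mice, Dp1Tyb1 and Dp1Tyb4, were those with low choroid plexus genes, and without the 3 low libraries the log2 fold change was 0.085 (adjusted p = 0.588). The inducible HSP70 gene Hspa1b had −0.16 ± 0.14 SE, the HSP110 gene Hsph1 0.11 ± 0.087 SE and the HSP40 gene Dnajb1 0.059 ± 0.046 SE.

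The same pathways hold more genes than these 38, and 103 of them were listed by function. Of the 102 that could be tested (Gdf15 was too low), 64 were higher and 38 lower in Dp1Tyb, with a median log2 fold change of 0.022, and none was differentially expressed in edgeR (adjusted p under 0.05). Without the 3 libraries low in choroid plexus genes 72 were higher and 30 lower, with a median of 0.039. An unadjusted p under 0.05 was found for 11, 6 of them higher and 5 lower, beside the 14.0% for tested genes outside the segment. DESeq2 called 1 of them, Ube2j1. The genotypes did not overlap for 3 of the 102 (Ube2j1, Edem2 and Cebpb), against 3.29% of the tested genes outside the segment.

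Ube2j1 was the gene with the smallest p among 18 genes of ER-associated degradation, the pathway that extracts misfolded proteins for the proteasome, and codes for a ubiquitin-conjugating enzyme anchored in the ER membrane. It measured 101, 99.1, 102, 97.8 and 100 CPM in WT and 109, 112, 108, 111 and 106 CPM in Dp1Tyb. The genotypes did not overlap, and the log2 fold change was 0.13 ± 0.032 SE (edgeR adjusted p = 0.0815). In the same list 13 genes were higher and 5 lower. Among the lower ones, Edem2 had a log2 fold change of −0.15 ± 0.050 SE (edgeR unadjusted p = 0.00864, adjusted p = 0.184). Its genotypes did not overlap either. Syvn1 was lower too, at −0.10 ± 0.046 SE (edgeR unadjusted p = 0.0413, adjusted p = 0.327).

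In the other lists the gene with the smallest p was named in the same way. Txndc5, a disulphide isomerase, had a log2 fold change of 0.13 ± 0.041 SE among 16 other genes of ER folding and translocation (10 higher, 6 lower; edgeR adjusted p = 0.183). Cebpb, a transcription factor that is a partner of CHOP and ATF4, had −0.75 ± 0.28 SE among 12 other regulators of the unfolded protein response (7 higher, 5 lower; adjusted p = 0.251). It was close to the limit of measurement, at 1.57 to 2.80 CPM in WT and 0.424 to 1.55 CPM in Dp1Tyb, although the genotypes did not overlap.

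Impact, an inhibitor of GCN2, had 0.083 ± 0.048 SE among 7 genes of eIF2, eIF2B and their regulation (4 higher, 3 lower; adjusted p = 0.444). All 7 were higher without the 3 libraries low in choroid plexus genes, with a median of 0.036. The asparaginyl-tRNA synthetase gene Nars had 0.15 ± 0.049 SE among 21 tested amino acid genes of the ATF4 programme (15 higher, 6 lower; adjusted p = 0.205). Dnajb4, a J-domain protein gene, had 0.15 ± 0.045 SE among 20 other genes of the HSF1 system (14 higher, 6 lower; adjusted p = 0.166).

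Because Ddit4 is also induced by glucocorticoids, 8 other glucocorticoid-induced genes were listed. Of these, 7 were lower and 1 higher, with a median log2 fold change of −0.057 and none called. Of the 17123 tested genes outside the segment, 8831 were lower, with a median of −0.0049. Without the 3 libraries low in choroid plexus genes, 5 of the 8 listed genes were lower and 3 higher. The split was the same with the Ttr level as a covariate. The smallest p was that of Plin4, a lipid droplet protein gene, with 11.7, 7.36, 4.12, 4.36 and 4.66 CPM in WT and 2.80, 3.82, 3.28, 3.48 and 4.29 CPM in Dp1Tyb. The ranges overlapped, and WT1 and WT2 stood above the rest. Its log2 fold change was −0.89 ± 0.27 SE (edgeR adjusted p = 0.145). Whether glucocorticoids had a part in the level of Ddit4 was not tested.

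The 38 genes also varied between mice of 1 genotype, and most chaperone genes varied in parallel with Hspa5. For each gene the deviation of each mouse from its genotype mean was taken on the log2 CPM scale, so that no genotype difference entered, and correlated with that of Hspa5 over the 10 mice. Pearson's r exceeded 0.5 for 10 of the 14 other chaperone genes, for 3 of the 23 other genes (Xbp1, Hspa1b and Hspa8) and for 10.1% of all 17236 other tested genes. The median r was 0.64 for the 14 chaperone genes and −0.008 for all tested genes. Since all genes were read from the same 10 libraries, these counts are descriptions and not tests.

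Each of the 37 correlations was tested by an exact two-sided permutation within the genotypes, with adjustment over the 37. After adjustment 2 passed, both for disulphide isomerase genes. For Pdia6, r was 0.864 (exact permutation p = 0.000556, adjusted 0.0206, n = 10) and Spearman's rho was 0.927 (exact permutation p = 0.000556, adjusted 0.0206). For Pdia4, r was 0.898 (exact permutation p = 0.0016, adjusted 0.0296, n = 10) and rho was 0.867 (exact permutation p = 0.00361, adjusted 0.0668). WT2 and Dp1Tyb1 lay farthest from the median of Hspa5, and without them r was 0.778 for Pdia6 and 0.764 for Pdia4. Without these 2 mice, 8 of the 14 chaperone genes had an r above 0.5, against 9.24% of all tested genes. Of the 10 chaperone genes above 0.5 over all mice, 7 were among them, whereas r was 0.157 for Canx, 0.264 for Dnajc3 and 0.498 for Dnajb11.

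**Figure D4:**
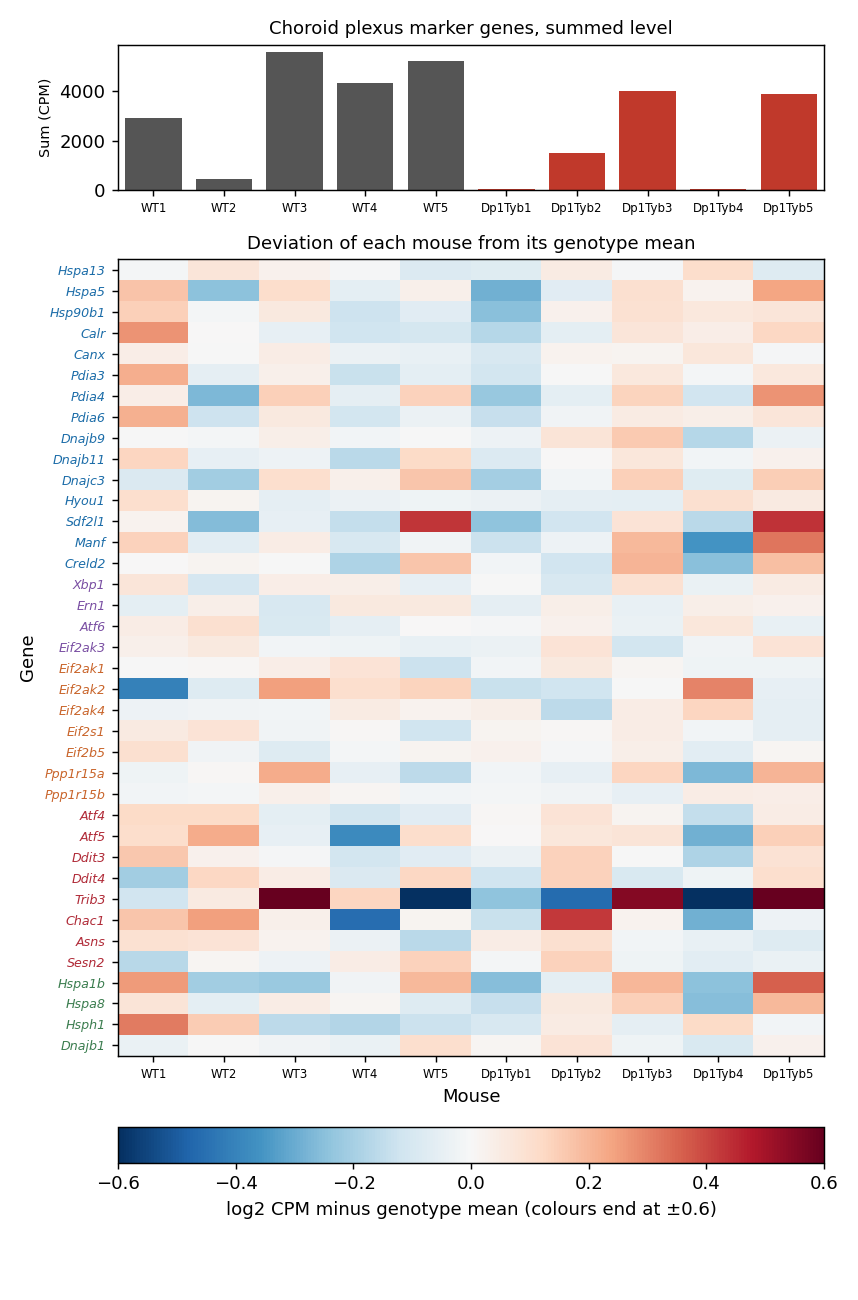
Deviation of each mouse from its genotype mean for the 38 genes, in log2 CPM (red above, blue below; gene names coloured by role), under a bar plot of the summed level of 11 choroid plexus marker genes in the same mice. Of the 15 chaperone genes at the top, 12 lie more than 0.05 below their mean in Dp1Tyb1 and 7 do in WT2. Both mice had little choroid plexus RNA. Dp1Tyb4 also had little and is near 0 for Hspa5. In Dp1Tyb4, Manf, Creld2, Dnajb9, Sdf2l1, Pdia4 and Dnajc3 lie more than 0.05 below their mean. Hspa13, Hyou1, Canx and Hsp90b1 lie more than 0.05 above it in that mouse.

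The chaperone genes did not all vary in this way. The duplicated Hspa13 had an r of −0.177 and Dnajb9 an r of 0.113, and of the sensor genes Eif2ak3 had an r of 0.014, Atf6 of −0.391 and Ern1 of −0.179. For Atf4 it was −0.063, for Ddit3 0.259 and for Ddit4 −0.074. None of these passed the exact permutation test after adjustment.

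**Figure D5:**
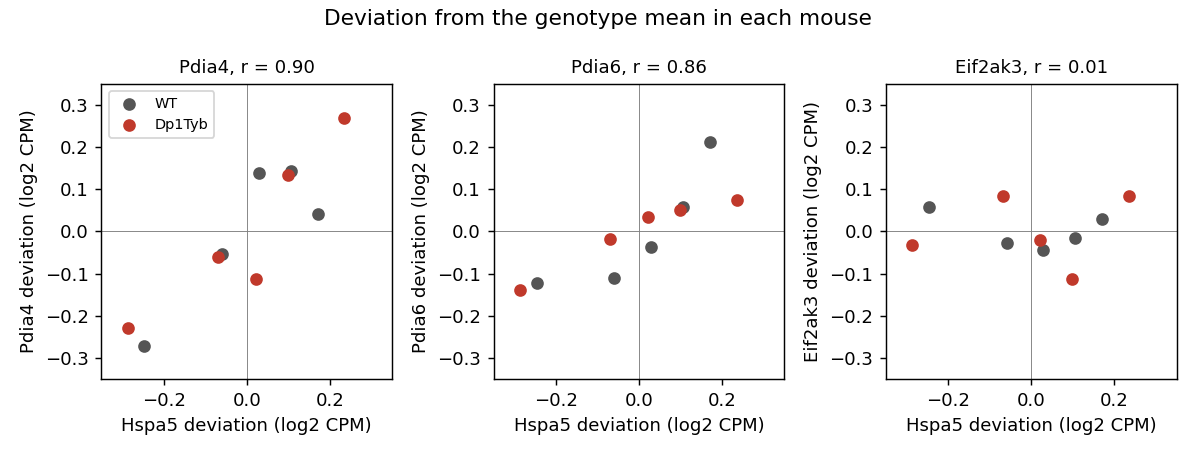
Deviation from the genotype mean of Pdia4, Pdia6 and Eif2ak3 (y axis) against that of Hspa5 (x axis), in log2 CPM, with 1 point for each of 5 WT (grey) and 5 Dp1Tyb (red) mice. Pdia4 and Pdia6 rise with Hspa5 in both genotypes (r = 0.90 and 0.86), and the points of Eif2ak3 are scattered (r = 0.01).

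Choroid plexus content moved with part of this pattern. The summed choroid plexus level was 443 CPM in WT2 and 44.9 CPM in Dp1Tyb1, the mice with the lowest Hspa5 of their genotypes, but also 53.5 CPM in Dp1Tyb4, whose Hspa5 was close to its genotype mean. Over all 10 mice, in which the choroid plexus genes fell into a low and a high set of libraries, the r of Hspa5 with these 11 genes was 0.669 to 0.792, as high as with many chaperone genes. Among the 7 libraries above 1000 CPM it was 0.095 to 0.522. Immediate early genes moved the opposite way over all 10 mice. WT2 and Dp1Tyb1 had the highest summed level of these genes in their genotypes, 392.2 and 345.6 CPM. The r of Hspa5 with the 10 immediate early genes was −0.717 to −0.199 over all mice, and −0.441 to 0.412 among the 7 libraries. In the same 7 libraries 9 of the 14 chaperone genes had an r above 0.5 with Hspa5, 7 of them among the 10 of all mice, against 11.99% of all tested genes. In these 7 libraries r was 0.806 for Pdia4, 0.793 for Pdia6 and 0.991 for Manf, but 0.189 for Dnajc3, which had 0.733 over all 10. The part of the choroid plexus in the shared variation was otherwise not tested, and that of the immediate early genes was not tested.

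Over all tested genes, the 5 whose deviations were most like those of Hspa5 were Armc3 (r = 0.930), Dnali1 (0.929), 4833427G06Rik (0.928), Slc5a3 (0.927) and Cfap161 (0.927), ahead of Pdia4 at rank 18 and Pdia6 at rank 43. Dnali1 and Cfap161 code for proteins of motile cilia, and Slc5a3, the myo-inositol transporter gene, lies in the duplicated segment. Among the 7 libraries above 1000 CPM of choroid plexus genes, r was 0.847 for Armc3, 0.799 for Dnali1, 0.815 for 4833427G06Rik, 0.909 for Slc5a3 and 0.754 for Cfap161.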

How the data were processed

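The authors prepared TruSeq stranded poly(A) libraries from total RNA, trimmed the paired-end reads with Trim Galore, aligned them to GRCm38 with TopHat2 2.0.12 and obtained gene counts by Ensembl identifier from HTSeq. Reads with more than 1 alignment had been removed, and the strand setting of the counting was not given in the sources used here, so counts of genes that overlap another gene are uncertain. The deposited counts are whole reads per gene, not normalised. The authors also deposited normalised values and their own DESeq2 comparison (fold changes and p-values), which were not used here.

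The labelled genotype set the groups, and the labels give no batch. All 43629 genes entered edgeR 4.0.16 (R 4.3.3), of which 14647 had no count, and the quasi-likelihood F-test was made with TMM normalisation, filterByExpr, no covariate and Benjamini-Hochberg adjustment over all 17237 tested genes. Genes with an adjusted p under 0.05 were called. CPM used TMM factors, and log2 CPM a prior count of 2. RPKM used the summed exon length of GENCODE M21 (GRCm38), to which 42462 gene identifiers matched and 1167 did not. Every pair of libraries differed by more than sampling noise (lowest chi-square per degree of freedom 4.63). Correlations were tested by 14400 permutations within genotypes. The scripts were tested on simulated data.

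The 38 genes and all gene lists were chosen with earlier results of these data known. Levels in each mouse are given for Hspa13, genes with an unadjusted p under 0.05 and a leading gene of each role (Hspa5, Eif2ak3, Ppp1r15a, Atf4 and Hspa8), and of each further list the genes that passed or else the gene with the smallest p were named. Edem2 and Syvn1 were also named, as further genes of ER-associated degradation with an unadjusted p under 0.05. Hspb1 was named for the same reason in the list of the HSF1 system. The genes most like Hspa5 were named after their values were seen. Alternatives were DESeq2 1.42.0, its size factors in edgeR, no filter on low counts, a replicate block, the Ttr level as a covariate, and leaving out single libraries or the 3 low in choroid plexus genes.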

Additional observations from a re-analysis of the deposited data

Results flagged for a closer look

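Within a genotype, 1 mouse stood apart from the other 4 in 5 of the 76 sets of values (38 genes in 2 genotypes), where chance alone gives 3.8, about 1 in 20. The measure is the gap between the extreme mouse and its nearest neighbour as a share of the whole range, with a critical value of 0.71 for 5 mice.

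For Hsp90b1 the share was 0.785, since Dp1Tyb1 had 152.8 CPM and the other Dp1Tyb mice 185.1 to 194.0 CPM. Dp1Tyb1 also had the lowest Hspa5 of its genotype and the lowest summed level of choroid plexus genes, 44.9 CPM, whose part in the Hsp90b1 value was not tested. For Calr it was 0.713, since WT1 had 369.3 CPM and the other WT mice 282.6 to 307.4 CPM. The same mouse had the highest Hspa5 and Pdia3 of its genotype.

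For Eif2ak2 the share was 0.726, with 10.12 CPM in Dp1Tyb4 and 7.473 to 8.198 CPM in the other Dp1Tyb mice. For Sesn2 it was 0.764, with 19.39 CPM in Dp1Tyb2 and 16.87 to 17.47 CPM in the others. For Dnajb1 it was 0.722, with 41.22 CPM in WT5 and 37.31 to 38.4 CPM in the other WT mice.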

How the results depend on the processing

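Hspa13 was called under every setting, with a log2 fold change of 0.653 to 0.702 when single libraries were left out. The number of called genes among the 38 was 1 in edgeR, 3 in DESeq2, 2 with the replicate block (Ddit4 added) and 1 to 2 with single libraries left out, 2 only without WT1. Among all tested genes it was 191 in edgeR, 507 in DESeq2, 315 with the replicate block, 121 with the Ttr level as a covariate, 108 without the 3 libraries low in choroid plexus genes and 105 to 218 without single libraries (105 without WT4 or Dp1Tyb2, 111 without Dp1Tyb3 and 127 without WT5). Of the further genes of these pathways DESeq2 called 1 and the other settings none. Mice with the same replicate number had correlations of 0.219, −0.027, 0.212, −0.069 and 0.277 between their deviations from the genotype means. Only WT1 correlated best with its own number. These values cannot decide whether the numbers pair mice by litter or batch, since choroid plexus content and other differences between mice enter them too. The gene with the fewest counts, Trib3 (11 to 38 per library), also had the widest interval; depth itself was not varied.

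Some differences changed sign, not only those nearest 0, and none of them was called under any setting. The largest of them in the main comparison was that of Hspa1b, at −0.16 ± 0.14 SE. With the Ttr covariate the log2 fold changes turned to 0.0291 (Pdia6), 0.0266 (Dnajb9), 0.0291 (Dnajb11), 0.0395 (Dnajc3), 0.103 (Sdf2l1), 0.0873 (Manf), −0.0009 (Atf6), 0.001 (Ppp1r15a), 0.293 (Trib3), 0.0069 (Hspa1b) and 0.0941 (Hspa8). Without the 3 libraries low in choroid plexus genes they turned to 0.0261 (Dnajb9), 0.0074 (Dnajb11), 0.0042 (Sdf2l1), 0.0764 (Manf), −0.0098 (Eif2ak2), −0.0008 (Eif2b5), 0.004 (Ppp1r15a), 0.0604 (Atf5), 0.312 (Trib3), 0.105 (Chac1) and 0.0848 (Hspa8). DESeq2 gave −0.0037 for Eif2b5 and −0.0039 for Ddit3, its size factors in edgeR −0.0024 and −0.0022, and the replicate block −0.0017 for Ddit3. With single libraries left out, the ranges that crossed 0 were −0.0143 to 0.091 (Calr), −0.0348 to 0.0456 (Ddit3), −0.0451 to 0.0283 (Dnajb11), −0.0719 to 0.0078 (Dnajb9), −0.0266 to 0.025 (Eif2ak1), −0.0149 to 0.139 (Eif2ak2), −0.0185 to 0.0259 (Eif2b5), −0.0138 to 0.0754 (Hsp90b1), −0.025 to 0.103 (Hspa5), −0.0664 to 0.0404 (Hspa8), −0.138 to 0.0253 (Manf), −0.0364 to 0.0902 (Pdia4), −0.0501 to 0.0418 (Pdia6), −0.0235 to 0.0021 (Ppp1r15b), −0.185 to 0.0558 (Sdf2l1) and −0.405 to 0.126 (Trib3). The causes were not tested.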
